A study of Mus musculus with 2 samples.

Results

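The nuclear genes of mitochondrial oxidative phosphorylation (OXPHOS) were followed through the CpG states of E14 mouse embryonic stem cells (mESCs). They were chosen by name alone, as the autosomal protein-coding genes of GENCODE vM21 (mm10) whose symbols begin with Nduf, Sdh, Uqcr or Atp5, or with Cox and a digit from 4 to 8. This gave 95 gene records among 20807 autosomal protein-coding genes. They comprised 42 genes of complex I (7 core subunits, 27 accessory subunits and 8 assembly factors), 8 of complex II and its assembly, 8 of complex III, 11 common subunits of complex IV, 18 of complex V and 8 isoforms restricted to certain tissues. Of the 2 records that carry the name Atp5o, the second is a read-through transcript of 242585 bp with incomplete ends, called Atp5o-207 here, whose first base is not an established start.

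The electron transport chain passes electrons from NADH and succinate to oxygen through complexes I to IV, and complex V, the ATP synthase, uses the resulting proton gradient to make ATP. Most subunits are encoded in the nucleus and are needed in almost every cell, so their genes are counted among the housekeeping genes, while a few subunits of complex IV also exist as isoforms found mainly in muscle, heart, lung or testis. Promoters of housekeeping genes usually lie in CpG islands, stretches dense in CpG that tend to stay free of methylation, and 5-hydroxymethylcytosine (hmC), which the Tet enzymes make from 5-methylcytosine (mC), is known to occur in the bodies of transcribed genes.

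In SCoTCH-seq the strands of a fragment are read together, and each call gives a CpG 1 of 9 CpG states, written with the plus strand first: CC is unmodified, MM is methylated on both strands, MC/CM is hemimethylated, HC/CH carries hmC opposite C, HM/MH carries hmC opposite mC and HH carries hmC on both strands. Genomic DNA came from 2 passages of E14, a mouse embryonic stem cell line, grown in serum with LIF on gelatin. The 2 libraries, replicate 1 and replicate 2, form 1 condition with no treated or mutant group, so both values are given for each gene and no test between samples was possible. A level is the mean, over the CpG sites of a gene and annotation, of the percentage of calls in a state.

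Replicate 1 held 13676795 CpG sites with a median depth of 10 calls, and replicate 2 held 4918612 sites with a median depth of 6. In the OXPHOS genes, replicate 1 covered 4600 promoter sites and 10991 sites in gene bodies, and replicate 2 covered 1666 and 4472. The covered promoter sites were 63.0% and 22.8% of the CpG sites in these promoters, against 45.1% and 15.6% for all genes. The OXPHOS genes are short, with a median span of 7760 bp against 17629 bp for all genes. OXPHOS genes had a median of 51 covered body sites in replicate 1 and 20 in replicate 2, against 125 and 48 for all genes. Calls on synthetic duplexes of known state, read in the same libraries, showed MM read as HM or MH at a rate of 4.51% in replicate 1 and 0.467% in replicate 2, and MC read as HC at 3.49% and 0.615%. CC was read as HC or CH at 0.154% and 0.219%. Levels are as called unless named as corrected with these rates. The promoters of 8 genes of pluripotency (Pou5f1, Nanog, Sox2, Klf4, Esrrb, Zfp42, Dppa5a and Tdgf1) had CC levels of 82.3% to 100.0% in both replicates, which describes the state of the DNA in this line and not transcription, since no RNA was analysed here.

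Most promoters of OXPHOS genes were almost free of modification. A promoter was taken as 1 kb either side of the transcription start site (TSS), and genes needed 5 CpG sites there in each replicate. The median CC level of 90 members was 95.2% in replicate 1 and 92.0% in replicate 2, against 89.8% and 85.6% over all autosomal protein-coding genes with as many sites. Median MM was 2.38% and 3.51%, against 5.58% and 7.5%. Median HC/CH was 0.669% and 0.529%, against 1.58% and 1.67%. Of the members, 61 of 90 (67.8%) exceeded the all-gene median of CC in both, compared with 43.2% of all genes.

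CC was 80% or more in both replicates at 74 of the 90 OXPHOS promoters with at least 5 CpG sites in each, or 82.2%, where 56.3% of all promoters met this threshold. With at least 10 sites in each it was 66 of 72, against 70.5%. The threshold was met by all 7 core subunits and all 8 assembly factors of complex I, and by all 8 subunits of complex III. In the other groups it was met by 21 of 24 accessory subunits of complex I, 5 of 8 genes of complex II, 9 of 11 common subunits of complex IV, and 14 of 17 genes of complex V. Only 2 of 7 tissue-restricted isoforms met it. Promoters of Atp5g1 and Ndufa6 had too few sites in both replicates to be counted, and those of Ndufb4, Ndufs5 and Cox7b2 had too few in replicate 2. Over the 90 promoters, the CC levels of the replicates had a Spearman correlation of 0.796 and a Pearson correlation of 0.930, and the points of a gene share its base composition.

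**Figure D1:**
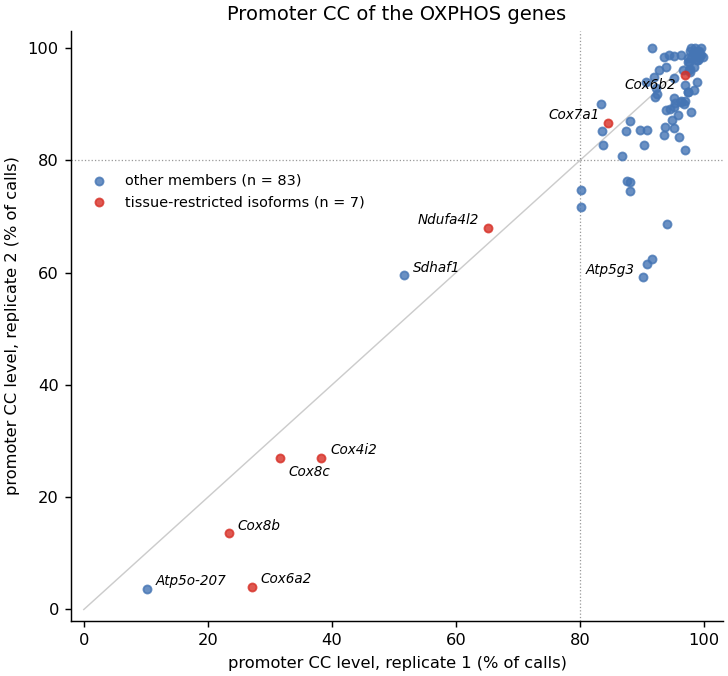
Promoter CC level of each OXPHOS gene in replicate 1 (x axis, percent of calls) against replicate 2 (y axis), 1 point for each of the 90 genes with 5 or more promoter CpG sites per replicate; dotted lines mark 80% and the grey line marks equal levels. Most points crowd above 80% in both replicates, while 5 of the 7 tissue-restricted isoforms lie below 80% in both.

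Of the 16 promoters that fell short, 9 did so in replicate 2 only: Sdhaf4, Cox7c, Atp5g3, Atp5e, Sdhb, Ndufa5, Ndufc2, Ndufb7 and Cox7a2. Their CC levels ranged from 80.1% to 94.0% on 34 to 61 sites in replicate 1, and from 59.2% to 76.3% on 6 to 37 sites in replicate 2. At the sites covered in both libraries, however, replicate 1 gave 58.4% to 77.4% and replicate 2 gave 56.2% to 74.1%. The sites of these promoters that replicate 2 covered were thus also the less unmodified ones in replicate 1. Atp5g3, which encodes the c subunit of the ATP synthase ring, is an example, with 90.2% on 44 sites in replicate 1, 59.2% on 8 sites in replicate 2, and 58.4% and 56.2% at 7 shared sites. Sdhb, the iron-sulfur subunit of complex II, had 91.7% on 51 sites and 62.4% on 7 sites, and 73.9% and 69.5% at 6 shared sites.

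The unmodified stretch covered the TSS and reached further downstream than upstream. Within 250 bp on either side of it, the mean CC level over the CpG sites of OXPHOS genes was 97.2% to 97.5% in replicate 1 and 96.6% to 97.2% in replicate 2, against 88.9% to 89.2% and 85.5% to 86.5% for all genes. MM in the same bins was 1.47% and 1.61% in replicate 1 and 1.65% and 1.19% in replicate 2, against 6.91% to 9.67% for all genes. Between 500 and 750 bp from the TSS, CC was 95.1% and 95.6% downstream and 81.9% and 77.7% upstream, and between 750 and 1000 bp it was 86.7% and 85.6% downstream and 70.6% and 66.8% upstream. All genes had the same asymmetry, with 82.9% and 79.8% downstream and 71.2% and 67.2% upstream between 500 and 750 bp. Beyond 1 kb the states changed quickly. Between 1 and 2 kb downstream, CC was 58.5% and 54.9%, and between 2 and 3 kb it was 31.2% and 30.5%, where all genes had 33.6% and 28.4%. HC/CH was lowest in the 250 bp before the TSS, at 0.323% and 0.239% against 1.22% and 1.48%. On the duplexes CC was read as HC or CH at 0.154% and 0.219%, so the levels of the OXPHOS genes there lie near the rate of miscalls. From 4 to 8 kb downstream HC/CH was 6.87% to 7.24% in replicate 1, above the 5.56% to 5.69% of all genes in every 1-kb bin. In replicate 2 it was 5.01% to 5.96%, against 4.97% to 5.06%, and in the bins from 4 to 6 kb the lines nearly met.

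**Figure D2:**
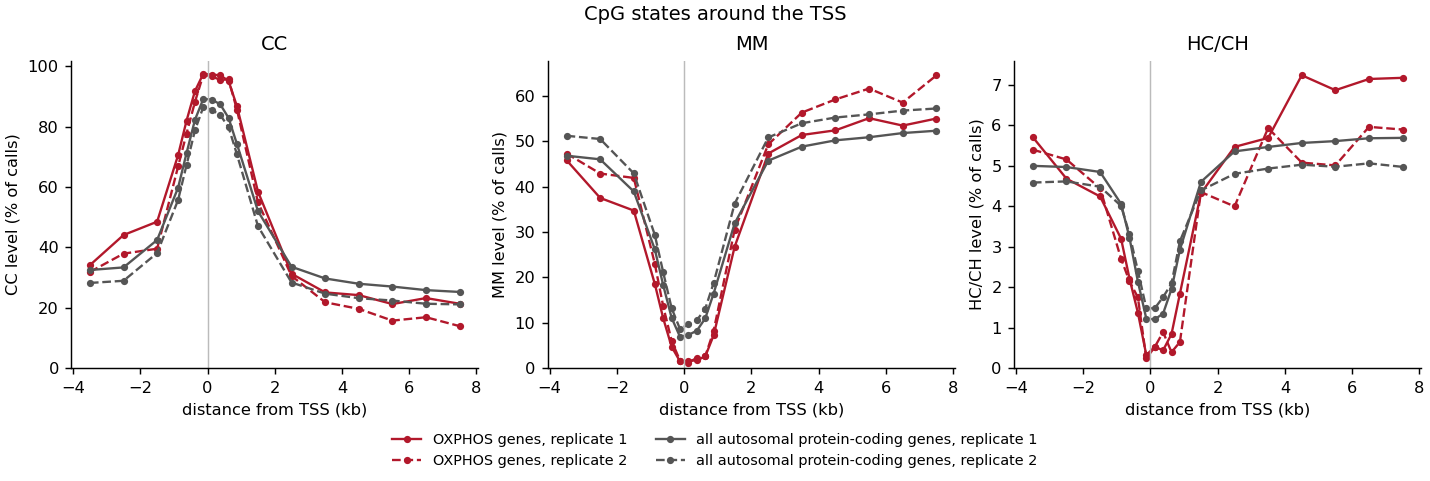
Mean CC, MM and HC/CH levels (y axes, percent of calls) over CpG sites against distance from the TSS (x axes, kb), with sites beyond the end of a gene left out and without Atp5o-207; red, OXPHOS genes, grey, all autosomal protein-coding genes, solid, replicate 1, dashed, replicate 2. Near the TSS the red CC lines reach 97% and the red HC/CH lines fall to 0.239% to 0.323%, and from 4 kb onward the solid red HC/CH line lies between 6.87% and 7.24%, above the solid grey line, while the dashed lines nearly meet from 4 to 6 kb.

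Sequence around the starts shared several features that the choice of genes did not use. In the 2 kb around the TSS, OXPHOS genes held a median of 72 CpG sites with an observed over expected ratio of 0.606, against 65 sites and 0.492 for all genes, at a GC content of 50.9% against 51.7%. The 8 tissue-restricted isoforms held a median of 35 CpG sites at a ratio of 0.280. A TSS of another protein-coding gene on the opposite strand lay within 1 kb upstream of 21 of the 95 OXPHOS genes (22.1%), against 7.18% of all genes. Examples of such head-to-head pairs are Sdhd with Timm8b, Uqcrh with Lrrc41, Sdha with Ccdc127 and Ndufaf2 with Ercc8. None of the tissue-restricted isoforms had such a partner.

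Promoters were then searched on both strands, from 250 bases before to 50 bases after the TSS, for short motifs of factors known to bind respiratory genes. CGCATGCG, the core of the NRF1 motif, was present in 9 of 95 OXPHOS promoters (9.47%) and in 2.41% of all promoters. AAGATGGC, a YY1 motif, was present in 8.42% against 3.1%, and CCGGAAGT, an ETS motif bound by GABP, in 7.37% against 5.09%. TCAAGGTCA, a motif of the estrogen-related receptors, was found in Cox6c, Atp5g3 and Sdhd, or 3.16% against 0.404%. The GC box GGGCGG was about as frequent in OXPHOS promoters as elsewhere, at 44.2% against 46.3%, and TATAAA was found in 9.47% against 12.6%. None of these motifs contains another, CGCATGCG reads the same on both strands, and a match describes the sequence and not binding.

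CpG sites inside the NRF1 matches were unmodified in the calls available. The 9 OXPHOS promoters with this core, none of them of a tissue-restricted isoform, are those of Uqcr11, Atp5g2, Ndufa11, Ndufs8, Ndufaf5, Ndufaf4, Atp5k, Cox6a1 and Atp5l. Of the 18 CpG sites in their matches, 9 were covered in replicate 1 with 90 calls and 3 in replicate 2 with 17 calls, and every call was CC. The absence of modified calls allows a share of up to 3.33% in replicate 1 and 17.6% in replicate 2, counting error only. These limits take each call as independent. CpG sites of the same match can be read on the same fragment, so the true limits can be higher. Over all promoters with this core, CC made up 96.6% and 96.1% of calls. The state was not particular to NRF1 matches. Outside the tissue-restricted isoforms, all 53 and 18 calls in ETS matches and all 188 and 54 in GC boxes were CC too. Over all CpG sites in the 250 bp before the TSS of these genes, mean CC was 99.1% and 98.5%.

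Most tissue-restricted isoforms stood apart, with promoters that differed from those of the common isoforms of the same subunit in CpG density or CpG state. To show both features, 150 bases directly before the TSS (GRCm38.p6, 5′ to 3′ on the strand of the gene) are given for pairs of isoforms, with every CpG in capitals.
Cox4i1: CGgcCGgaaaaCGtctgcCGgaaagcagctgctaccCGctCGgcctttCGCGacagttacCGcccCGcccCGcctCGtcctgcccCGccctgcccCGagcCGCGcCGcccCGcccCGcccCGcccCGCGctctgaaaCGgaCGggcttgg
Cox4i2: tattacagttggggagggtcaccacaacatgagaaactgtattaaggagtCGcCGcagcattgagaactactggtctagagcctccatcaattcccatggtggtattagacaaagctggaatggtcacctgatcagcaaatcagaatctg
Cox6a1: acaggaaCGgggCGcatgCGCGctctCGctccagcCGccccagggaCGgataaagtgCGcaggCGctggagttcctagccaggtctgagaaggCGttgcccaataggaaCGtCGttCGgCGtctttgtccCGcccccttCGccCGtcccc
Cox6a2: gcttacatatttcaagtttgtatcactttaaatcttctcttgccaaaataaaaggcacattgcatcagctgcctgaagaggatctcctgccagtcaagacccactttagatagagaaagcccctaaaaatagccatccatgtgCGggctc
Cox8a: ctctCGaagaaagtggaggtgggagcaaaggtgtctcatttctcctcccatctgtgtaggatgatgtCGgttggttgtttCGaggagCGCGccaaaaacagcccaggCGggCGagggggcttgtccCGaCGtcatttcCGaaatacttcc
Cox8b: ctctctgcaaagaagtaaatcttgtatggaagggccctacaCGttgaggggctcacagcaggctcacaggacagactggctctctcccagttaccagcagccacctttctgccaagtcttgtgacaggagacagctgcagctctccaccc
Cox8c: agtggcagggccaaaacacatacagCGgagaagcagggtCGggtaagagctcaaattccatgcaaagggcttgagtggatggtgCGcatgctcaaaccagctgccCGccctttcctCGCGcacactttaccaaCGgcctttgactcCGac
The first pair is subunit 4, with Cox4i1 at chr8:120668072-120668221 on the plus strand and Cox4i2 at chr2:152754944-152755093 on the plus strand. The Cox4i2 window lies inside its gene record, whose 5′ end is at chr2:152754173. No RefSeq start was matched to Cox4i2, Cox4i1, Cox6a2, Cox8c or Ndufa4l2, so the starts used for these genes were not compared with RefSeq. Cox6a1 lies at chr5:115348982-115349131 on the minus strand and Cox6a2 at chr7:128206388-128206537 on the minus strand. For subunit 8, Cox8a lies at chr19:7217617-7217766 on the minus strand, Cox8b at chr7:140900447-140900596 on the minus strand and Cox8c at chr12:102899166-102899315 on the plus strand.

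These windows held 24 CpG sites in Cox4i1 and 2 in Cox4i2, 17 in Cox6a1 and 1 in Cox6a2, and 10 in Cox8a, 1 in Cox8b and 8 in Cox8c. Replicate 1 covered 8 of these sites in Cox4i1, 9 in Cox6a1 and all 10 in Cox8a. All 52 calls in the Cox4i1 window and all 53 in the Cox6a1 window were CC in replicate 1. Taking each call as independent, this allows modified shares of up to 5.77% and 5.66% at the covered sites. In the Cox8a window 85 of 86 calls were CC. The Cox4i2 window gave 25 calls in replicate 1, of which 3 were CC, 12 were MM and 7 carried hmC, and 11 calls in replicate 2, of which none was CC, 8 were MM and 2 carried hmC. In the Cox8c window 39 of 59 calls were CC in replicate 1 and 12 carried hmC, 7 of them HC/CH and 5 HM/MH, and in replicate 2, 4 of 6 calls at 1 site were CC and 2 were MM. The single CpG of the Cox8b window gave 6 calls in replicate 1, of which 4 were CC, 1 was MM and 1 was HC/CH. Replicate 2 covered no site in the windows of Cox4i1, Cox6a2 and Cox8b.

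Not every restricted isoform was modified next to its TSS. The windows of Cox6b2, a testis isoform, Cox7a1, a heart and skeletal muscle isoform, and Ndufa4l2, an isoform of the complex IV subunit Ndufa4 that is induced by hypoxia, were unmodified or nearly so, and all hold few CpG sites.
Cox6b2: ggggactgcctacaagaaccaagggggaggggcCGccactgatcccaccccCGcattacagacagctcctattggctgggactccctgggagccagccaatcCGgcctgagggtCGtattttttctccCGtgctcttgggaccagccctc
Cox7a1: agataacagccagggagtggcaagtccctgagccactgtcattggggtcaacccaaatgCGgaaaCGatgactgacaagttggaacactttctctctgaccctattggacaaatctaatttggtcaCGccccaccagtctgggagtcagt
Ndufa4l2: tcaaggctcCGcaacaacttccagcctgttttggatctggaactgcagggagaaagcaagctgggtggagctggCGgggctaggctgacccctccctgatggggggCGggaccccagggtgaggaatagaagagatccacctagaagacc
Cox7b2: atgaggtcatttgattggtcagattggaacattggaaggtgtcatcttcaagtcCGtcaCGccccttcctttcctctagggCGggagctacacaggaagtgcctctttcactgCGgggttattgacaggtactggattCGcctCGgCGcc
Cox6b2 lies at chr7:4753024-4753173 on the minus strand, Cox7a1 at chr7:30183994-30184143 on the plus strand, Ndufa4l2 at chr10:127514817-127514966 on the plus strand, and Cox7b2, shown because its promoter was the most methylated of the isoforms in replicate 1, at chr5:71548206-71548355 on the minus strand. All 30 calls at 4 sites of the Cox6b2 window and all 32 calls at 3 sites of the Cox7a1 window were CC in replicate 1, which allows modified shares of up to 10.0% and 9.38%, and the 5 calls at 1 site of each in replicate 2 were CC too. In the Ndufa4l2 window 23 of 24 calls at 2 sites were CC and 1 was HC/CH in replicate 1, and replicate 2 covered no site. In the Cox7b2 window, 26 of 31 calls at 5 sites were MM and 1 was CC in replicate 1.

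Over the whole 2-kb promoter, Cox6b2 had a CC level of 96.9% in replicate 1 and 95.2% in replicate 2, close to its common counterpart Cox6b1 with 92.8% and 96.1%. Cox7a1 had 84.6% and 86.7%, while its common counterpart Cox7a2 had 94.0% and 68.6%. At the sites covered in both libraries, Cox7a1 had 85.6% and 86.7% on 5 sites, and Cox7a2 had 72.9% and 68.6% on 6. Cox6b2 and Cox7a1 therefore met the 80% threshold, and Cox7a2 did not, as given above.

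The other isoforms lay lower over the 2 kb. Ndufa4l2 had a promoter CC level of 65.2% on 24 sites in replicate 1 and 68.0% on 5 sites in replicate 2, while Ndufa4 had 97.7% and 96.2%. Cox4i2, the isoform of lung, had 38.3% on 14 sites and 27.0% on 6 sites, against 98.8% and 99.0% in Cox4i1. Cox8c, a testis isoform, had 31.6% on 36 sites and 27.0% on 17 sites. At the sites covered in both libraries, Cox4i2 had 30.2% and 25.8% on 5 sites against 99.1% and 97.9% in Cox4i1, and Cox8c had 25.6% and 19.9% on 15 sites against 97.4% and 91.0% in Cox8a. Ndufa4l2 had 85% and 65.0% on 4 shared sites and Ndufa4 had 93.2% and 94.6% on 14. The replicates of Ndufa4l2 thus lay further apart than replicate 1 lay from Ndufa4, while those of Cox4i2 and Cox8c were close beside the distance to the common isoform.

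Cox6a2 and Cox8b, isoforms of muscle like Cox7a1, had less CC and more MM than Cox7a1 in both replicates. Cox6a2 had a CC level of 27.1% on 17 sites in replicate 1 and 4.0% on 5 sites in replicate 2, with MM of 46.5% and 81.3%. Cox8b had 23.3% on 27 sites and 13.5% on 10 sites, with MM of 59.1% and 56.6%. The common isoform Cox8a had a CC level of 97.0% and 90.6%, and Cox6a1 had 97.5% and 92.1%. Cox7b2, a testis isoform, had 5.86% CC and 69.9% MM on 22 sites in replicate 1, and replicate 2 covered only 2 of its sites, where 0 of 10 calls were CC, which allows a share of up to 30.0%. MM of 50% or more in both replicates was seen at 2 of the 90 OXPHOS promoters, Cox8b and Atp5o-207, where 12.2% of all promoters met this threshold. With at least 10 sites in each replicate it was 2 of 72, against 4.94% of all promoters. The record Atp5o-207, with MM of 63.5% and 75.1%, begins inside the compact Atp5o gene.

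**Figure D3:**
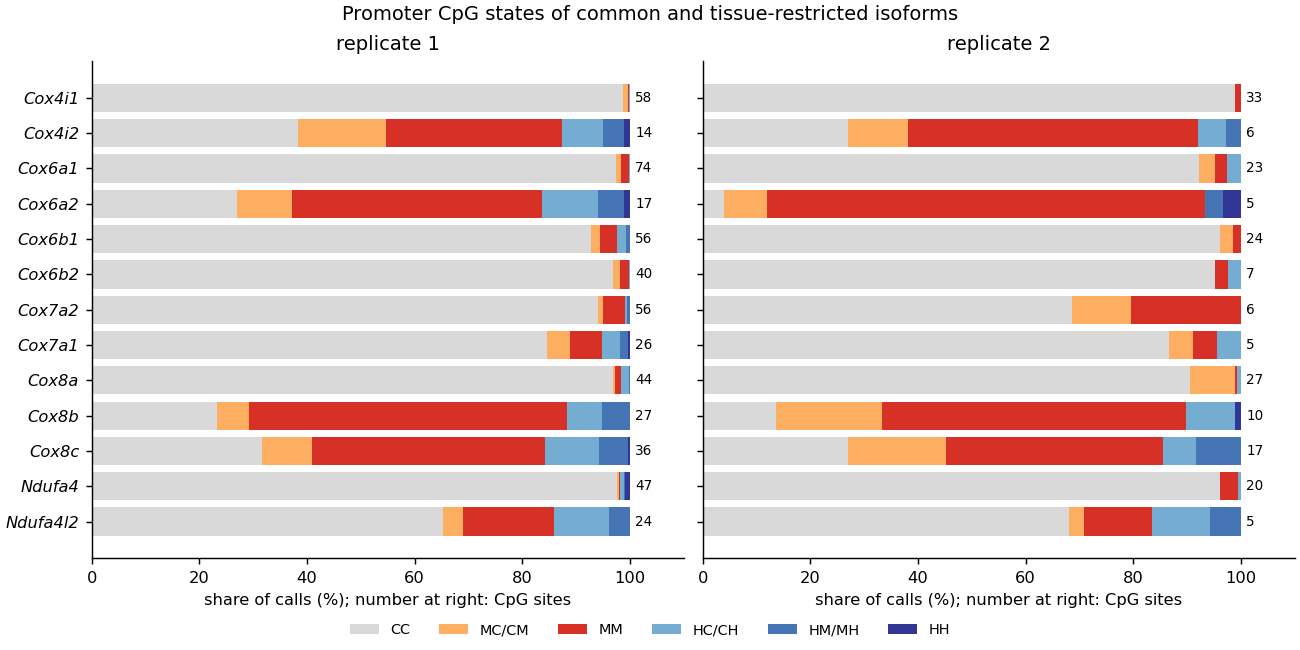
Promoter CpG states of common and tissue-restricted isoforms as stacked shares of calls (x axis, percent, mean over CpG sites) in replicate 1 and replicate 2; each bar is 1 gene and the number beside it gives its CpG sites. Bars of the common isoforms Cox4i1, Cox6a1, Cox6b1, Cox8a and Ndufa4 are over 90% grey (CC) in both replicates, and those of Cox4i2, Cox6a2, Cox8b and Cox8c are mostly modified. The bar of the common isoform Cox7a2 is 94.0% grey in replicate 1 and 68.6% in replicate 2.

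Partly modified promoters of the isoforms also carried hmC opposite unmodified C. HC/CH at the Ndufa4l2 promoter was 10.3% in replicate 1 and 10.9% in replicate 2, at Cox8c 10.1% and 6.18%, at Cox4i2 7.58% and 5.19%, and at Cox8b 6.64% and 9.0%. At Cox6a2 it was 10.4% in replicate 1, and none of 27 calls in replicate 2 was HC or CH, which allows a share of up to 11.1%. The median HC/CH level over the isoforms was 7.11% for 8 promoters in replicate 1 and 5.19% for 7 in replicate 2. All promoters with 5 sites in the same replicate had 1.79% and 1.67%, but most of these were largely unmodified. Between 1 and 2 kb upstream of the TSS, mean CC of all genes was 42.4% and 38.1%. Mean HC/CH there was 4.85% and 4.48%. The part of the lower CC in the HC/CH of the isoforms was not tested. Median HM/MH of the isoforms was 4.40% and 2.78% as called, and 2.30% and 2.69% after correction with the call rates of each replicate.

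Outside the isoforms, among promoters with 5 sites in each replicate, the lowest CC by the mean of the replicates belonged to Atp5o-207, Sdhaf1 and Atp5g3. Sdhaf1, an assembly factor that helps to insert iron-sulfur clusters into Sdhb, had 51.6% on 14 sites in replicate 1 and 59.5% on 7 sites in replicate 2. The body of this single-exon gene, in contrast, had CC of 98.4% on 51 sites and 98.9% on 18 sites. The RefSeq start of Sdhaf1 lies 1520 bases downstream of the GENCODE start, and around it CC was 97.5% and 98.3%. Ndufs5, an accessory subunit of complex I outside this ranking for its few sites, with 50.8% on 12 sites in replicate 1 and 24.2% on 4 sites in replicate 2, had its RefSeq start 1860 bases upstream, where CC was 85.6% and 70.1%. Among the 75 members matched to a RefSeq start by symbol, 67 had a start within 250 bases of the one used, and these 2 were the members where it was over 1000 bases away.

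In gene bodies, OXPHOS genes were mainly methylated, with a median MM below that of all genes. Body sites are those of exons and introns outside the promoter. Over the 72 members with at least 10 body sites in each replicate, median MM was 51.4% in replicate 1 and 55.7% in replicate 2, against 55.8% and 60.7% over all genes with as many sites, and median CC was 26.8% and 21.4%, against 21.1% and 16.9%. Of the 72 members, 43 (59.7%) exceeded the all-gene median of CC in both replicates, compared with 44.7% of all genes, and 21 (29.2%) exceeded that of MM, compared with 43.9%. These genes were shorter than most, as given above, and the part of gene length in these differences was not tested. Over the 72 genes the replicates had a Spearman correlation of 0.919 for body CC and 0.902 for body MM.

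HC/CH was the main hydroxymethylated state of OXPHOS gene bodies, with a median slightly above that of all genes. The median body level over the 72 members was 5.92% in replicate 1 and 4.71% in replicate 2, against 5.17% and 4.28% over all genes with as many sites. With 5 sites per annotation in a replicate, it was 5.54% and 4.77% in introns, against 4.98% and 4.11%, and 5.74% and 4.29% in exons, against 5.07% and 4.27%. In replicate 2 the exon medians of members and all genes therefore barely differed. Within single genes, exons and introns showed no preferred order: HC/CH was higher in exons in 37 of 72 members with both in replicate 1 and in 20 of 43 in replicate 2. After correction with the call rates the intron medians were 5.09% and 4.79%, against 4.52% and 4.10%.

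Counted gene by gene, 35 of 72 OXPHOS bodies (48.6%) lay above the all-gene median of HC/CH in both replicates, compared with 39.0% of all genes. Against the share of HC or CH among all other body calls, which was 4.6% in replicate 1 and 4.10% in replicate 2, 38 of the 72 (52.8%) were higher in both replicates and 13 (18.1%) were lower in both, where the shares over all genes were 44.9% and 34.0%. No more is read from these shares, since genes are not replicates. Over the members, body HC/CH of the replicates had a Spearman correlation of 0.550, well below those of CC and MM, so the level of a single gene is less certain.

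Few single genes passed a test. Fisher's exact test, two-sided, compared HC or CH calls in a body with those in all other bodies in each replicate, with Benjamini-Hochberg adjustment over all genes, and a gene was called when the adjusted p was under 0.05 in the same direction in both replicates. It called 4 of 72 members higher (5.56%), where 14.4% of all genes were called, and 2 lower (2.78%), where 9.25% were called. The counts depended on the library: replicate 1 alone called 26 of 86 members higher, near the 31.3% of all genes, and 6 lower, against 20.3%, while replicate 2 alone called 7 of 72 higher, against 16.9%, and 2 lower, against 10.7%. The members called higher included Sdhb, Cox4i1 and Atp5o-207, and those called lower were Cox7b2 and Sdhaf3. The p-values cover counting error within a library only. They and the intervals below take each call as independent. Calls at neighbouring CpG sites can come from the same fragment, so p-values can be too small and intervals too narrow. OXPHOS genes had fewer body sites than other genes, as given above, and the part of this in the counts was not tested.

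In Sdhb, HC or CH made up 123 of 1787 calls in replicate 1, or 6.88% with an exact Clopper-Pearson 95% interval of 5.75% to 8.16%, and 36 of 451 calls in replicate 2, or 7.98% with an interval of 5.65% to 10.9%. Both lay above the other bodies by Fisher's exact test, with adjusted p of 6.31e-05 and 0.0015. Sdhb encodes the subunit that carries electrons from succinate through iron-sulfur clusters, and its exons and introns were alike, with HC/CH levels of 8.25% and 6.87% in exons and 6.81% and 8.55% in introns. Its promoter, given above, was among those that fell below 80% CC in replicate 2.

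Cox4i1, the common isoform of subunit 4 whose promoter sequence is shown above, had 53 of 736 calls in replicate 1 (7.20%) and 17 of 181 in replicate 2 (9.39%), with adjusted p of 0.0037 and 0.0102 by Fisher's exact test. Here the exons were higher than the introns in both replicates, with levels of 11.3% and 12.3% against 3.83% and 6.68%, and the gene was not called from introns alone or from sites covered in both replicates. Its promoter HC/CH, by comparison, was 0.115% in replicate 1 and 0 of 193 calls in replicate 2, which allows a share of up to 1.55%. The level in replicate 1 is no higher than the rate of 0.154% at which CC was read as HC or CH. Atp5o-207 had 5.64% of 25753 calls and 5.28% of 6208, with adjusted p of 1.44e-13 and 8.09e-05 by the exact test, over a span that also holds other genes.

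Both members called lower are long. Ndufs4, an accessory subunit of complex I with a span of 100464 bp, had 6.16% and 5.13% of calls and was not called. The longest record, Atp5o-207, was called higher. The part of gene length and of the number of calls in these results was not tested. Cox7b2, the testis isoform with the methylated promoter, spans 105382 bp, and 2.44% of 4543 calls in replicate 1 and 2.10% of 762 in replicate 2 were HC or CH, with adjusted p of 5.79e-13 and 0.0164 by Fisher's exact test. Sdhaf3, an assembly factor of complex II with a span of 86976 bp, had 2.58% of 2912 calls and 1.35% of 592, with adjusted p of 1.39e-07 and 0.00139 by the same exact test. Their bodies had MM above the all-gene medians, with levels of 63.8% and 69.9% in Cox7b2 and 61.3% and 71.1% in Sdhaf3.

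By the mean of the replicates, the highest body HC/CH levels belonged to Atp5e, Cox4i1, Atp5b, Ndufv3 and Sdhb. Atp5e, the epsilon subunit of the ATP synthase, had 6.75% on 23 sites in replicate 1 and 16.6% on 10 sites in replicate 2, so its rank rests on 66 calls of replicate 2. The adjusted p was 0.281 in replicate 1 and 1.64e-04 in replicate 2 by Fisher's exact test. Atp5b, the catalytic beta subunit, had 7.05% and 8.71%, and Ndufv3, an accessory subunit at the NADH-binding end of complex I, had 8.49% and 6.93%. Neither passed in both replicates, with adjusted p of 0.075 and 0.02 for Atp5b and 7.6e-07 and 0.0863 for Ndufv3 by the exact test. In replicate 1 alone the highest level was that of Ndufb7, an accessory subunit of complex I, with 11.9% on 27 sites, but it had 2.27% on 11 sites in replicate 2, and its adjusted p was 1.29e-05 and 0.889 by the exact test.

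By the same mean, the lowest levels belonged to Sdhaf1, Ndufb10, Ndufa5, Sdhaf3 and Atp5f1. Sdhaf1 had 0.663% in replicate 1 and 0 in replicate 2, where 0 of 117 calls were HC or CH, which allows a share of up to 2.56%. All sites counted as its body lie within 1 kb of its RefSeq start, so by that annotation this is a promoter level. Ndufb10, an accessory subunit of complex I, had 0.929% on 15 sites and 1.11% on 10 sites, with 2 of 162 and 1 of 71 calls being HC or CH. Their bodies were almost unmodified, with CC of 98.4% and 98.9% in Sdhaf1 and 95.1% and 89.3% in Ndufb10. Ndufa5, another accessory subunit, had HC/CH of 2.71% and 1.11% with CC of 29.9% and 27.9%. Atp5f1, subunit b of the stalk of the ATP synthase, had 2.95% and 1.27% with CC of 40.9% and 31.5%. Of these, Sdhaf1, Ndufa5 and Atp5f1 passed the test in replicate 1 only.

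**Figure D4:**
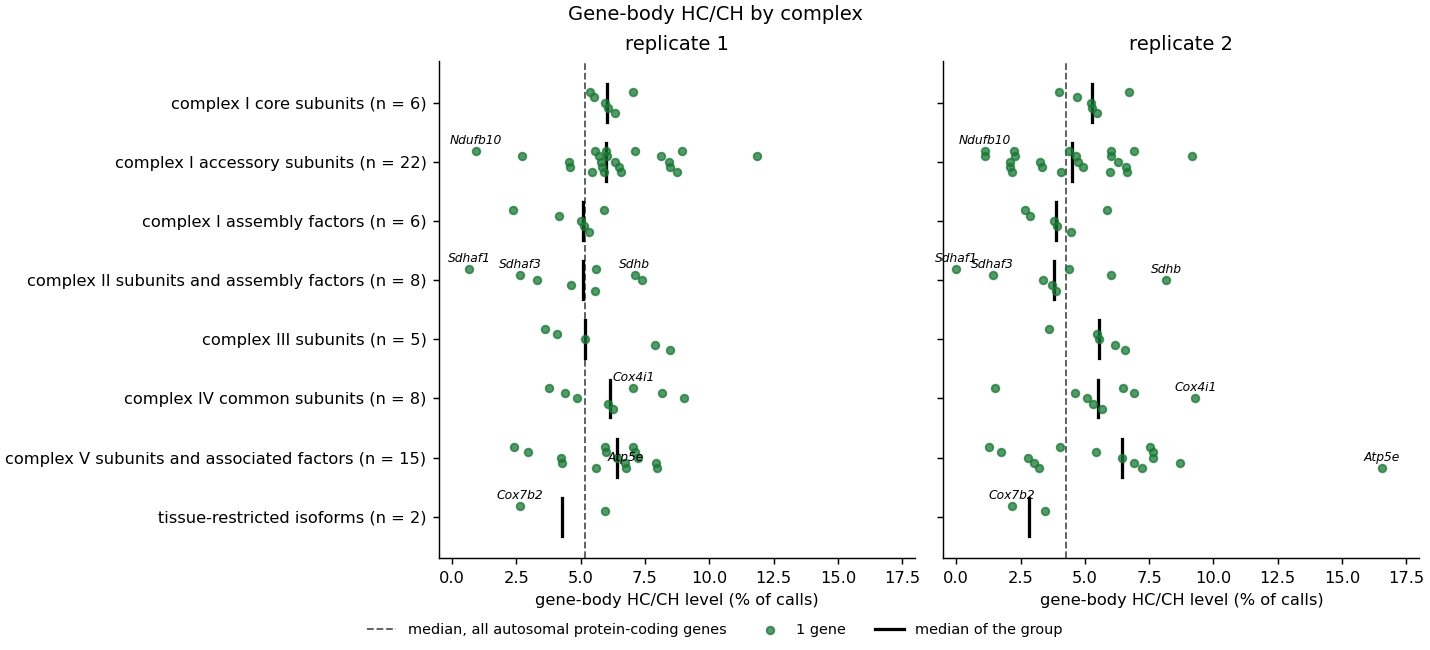
Gene-body HC/CH level (x axis, percent of calls, mean over CpG sites) of the 72 OXPHOS genes with at least 10 body sites in each replicate, by group (y axis); each point is 1 gene, black bars are group medians and dashed lines are medians of all autosomal protein-coding genes with as many sites, 5.17% in replicate 1 and 4.28% in replicate 2. Group medians, except that of the 2 isoforms, span 5.07% to 6.40% in replicate 1 and 3.80% to 6.43% in replicate 2, with 3 and 2 of these groups below the dashed line.

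Among the complexes, medians of body HC/CH ran from 5.07% to 6.40% in replicate 1 and from 3.80% to 6.43% in replicate 2, with the 2 isoforms left out. Core subunits of complex I had 6.01% in replicate 1 and 5.26% in replicate 2 over 6 genes, and were lowest, by the mean of the replicates, in Ndufv1, the FMN-binding subunit, with 5.96% and 4.0%. Accessory subunits had 6.0% and 4.52% over 22 genes and ran, by the same mean, from Ndufb10 to Ndufv3. Assembly factors of complex I had 5.07% and 3.87% over 6 genes, from Ndufaf1 with 2.37% and 2.89% to Ndufaf6 with 5.91% and 5.87%. The differences among these 3 medians were smaller than the range of genes within each of the groups.

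Complex II genes had medians of 5.10% and 3.80% over 8 genes and ran from Sdhaf1, whose body lies within 1 kb of its RefSeq start, to Sdhb. Complex III genes had 5.17% and 5.57% over 5 genes. Here Uqcrc2, one of the core proteins of the complex, had 4.08% and 3.61%, and Uqcrc1, the other core protein, had 8.48% and 6.16%, and only replicate 1 gave an adjusted p under 0.05 for Uqcrc1 (1.05e-04 and 0.297, Fisher's exact test). Common subunits of complex IV had 6.15% and 5.50% over 8 genes, from Cox7a2 with 4.87% and 1.52% to Cox4i1. Complex V genes had 6.40% and 6.43% over 15 genes, from Atp5f1 to Atp5e.

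HC/CH exceeded HM/MH in both replicates in 54 of 72 OXPHOS bodies (75%), where 62.4% of all genes showed this order. After correction with the call rates 65 of 72 did so, where 85.3% of all genes did, so the distance to all genes was smaller. As called, the order held in all 6 core subunits, 15 of 22 accessory subunits and 4 of 6 assembly factors of complex I, and in 5 of 8 genes of complex II and 4 of 5 of complex III. It held in all 8 common subunits of complex IV, 12 of 15 genes of complex V and 0 of 2 isoforms. Median HM/MH in introns was 3.68% in replicate 1 and 2.61% in replicate 2, against 4.20% and 2.57% for all genes. After correction with the call rates it was 1.49% and 2.29%, against 1.60% and 2.22%, and the order of the replicates turned. HM/MH of single members was poorly shared between replicates, with a Spearman correlation of 0.165 over 72 genes.

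HC/CH was about equally frequent on the coding and template strands. In the 72 bodies summed, 2.66% of calls in replicate 1 carried hmC opposite C on the coding strand and 2.74% on the template strand, and in replicate 2 the shares were 2.39% and 2.43%. More calls lay on the coding strand in 31 genes and on the template strand in 35 in replicate 1, and in 31 and 33 in replicate 2. Over all genes these counts were 7883 and 7930, and 7288 and 7533. For HM/MH the members numbered 33 and 32 in replicate 1, and 19 and 31 in replicate 2. All genes had 7190 and 8498, and 6655 and 7541. For MC/CM the members numbered 36 and 36, and 39 and 29, against 8182 and 7946, and 8022 and 7679.

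Other genes of the pathway were read from 2 further lists. Of 34 assembly and electron-transfer genes with other names, such as the cytochrome c gene Cycs and the copper chaperone Sco1, 29 of 34 promoters (85.3%) met the CC threshold, against 56.3% of all promoters. In their bodies, 2 of 24 were called higher in HC/CH, Lyrm7 and Cox19, or 8.33% against 14.4% of all genes, and 1 was called lower, Cox16, or 4.17% against 9.25%. By the mean share of calls over the replicates, the highest was Cox19, a copper-handling assembly factor of complex IV, with 8.33% in replicate 1 and 8.81% in replicate 2, and the lowest was Cox16, another assembly factor of complex IV, with 2.49% in both. In replicate 1 alone Cox17, a copper chaperone, was higher with 9.98%, and it had 6.11% in replicate 2. Of 17 nuclear regulators of respiratory genes, 13 of 14 promoters (92.9%) met the threshold, and of 16 bodies 1 (6.25%) was called higher and 2 (12.5%) were called lower, where all genes had 56.3%, 14.4% and 9.25%. The highest by the same mean was Pprc1, a coactivator of the PGC-1 family, with 8.02% and 6.53%. The lowest was Ppargc1a, the coactivator PGC-1 alpha, with 2.62% and 1.31%, and Esrrg was the other gene called lower.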

How the data were processed

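SCoTCH-seq of genomic DNA from 2 E14 mESC libraries of 1 condition was used. Following the study's methods and the submitters' processing notes, the authors trimmed reads with cutadapt 4.6, aligned the inserts to mm10 with BSBolt and removed duplicates with Picard 3.1.1. The deposited count at a site is the number of read pairs in a state, listed where a site had 5 or more calls outside blacklisted regions, and the replicates were not pooled. The deposited percent of calls was checked against the counts, and neither was corrected with the spike-ins. Depth had a median of 10 and 6 calls per site, so counts from 1 or 2 sites, named as such, are imprecise.

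The 95 members, the gene lists, thresholds and tests were chosen with earlier results of these data known. Genes came from GENCODE vM21, with the start of the principal transcript as TSS. All positions on the autosomes lay on the C of a CpG of GRCm38.p6. Levels are means of per-site percentages, with at least 5 sites per annotation (10 for counts over gene bodies). The correction inverts the call rates of each replicate's duplexes, with negative values set to 0. Fisher's exact test with Benjamini-Hochberg adjustment at 0.05 was run per replicate over all genes with 10 body sites, of which 16543 had them in both, and tested on simulated data. Intervals and limits (3 calls of the total for a count of 0) cover counting error only. Tests, intervals and limits take each call as independent, although neighbouring CpG sites can be read on the same fragment. Intervals can therefore be too narrow, and limits and p-values too small. The replicates are separate passages. The genes named were the tissue-restricted isoforms, the highest and lowest body HC/CH of each list, the 5 highest and 5 lowest of all members, promoters with MM of 50% or more, and the 3 with the lowest promoter CC, and others are named where a count of 5 or fewer or a measured feature called for it after values were seen. Python 3.11.15, NumPy 2.4.6, pandas 2.3.3, SciPy 1.17.1 and Matplotlib 3.10.9 were used. Promoter sequence was read from the GRCm38.p6 genome of RefSeq. X-linked genes of the same symbols were not analysed here. The values of 1 member are not reported here.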

Additional observations from a re-analysis of the deposited data

How the results depend on the processing

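Of 90 values recomputed under other settings, 69 stayed within the spread of the replicates or, for counts, within 1.5 times, and 21 moved. Levels from a single replicate lie within this spread by arithmetic, so those among the 69 are no check. Median promoter CC, 93.6% as the mean of the replicates over genes with 5 sites in each one taken alone, moved to 90.5% with calls summed over members, to 99.1% within 500 bases of the TSS and to 75.6% from 2 kb upstream to the TSS. Median promoter MM, 2.98%, moved to 1.67% with a coverage minimum of 10, 5.67% with summed calls, 0.031% within 500 bases and 14.7% from 2 kb upstream. Intron HC/CH, 5.15%, moved to 4.01% with a coverage minimum of 10, and intron HM/MH, 3.15%, to 1.89% after correction. The coverage minimum of 10 left few members measured in replicate 2: the CC threshold was then met by 3 of 5, against 76.5% of all genes, MM of 50% by 0 of 5, against 1.57%, HC/CH was called higher and lower in 0 and 0 of 3, against 4.11% and 3.04%, and HC/CH lay above HM/MH in 1 of 3, against 46.2%, and exon HC/CH gave no value. Promoters with MM of 50% or more numbered 1 of 66 within 500 bases, 1 of 89 without Atp5o-207 and 1 of 71 with RefSeq starts. The shares over all genes were 7.05%, 12.2% and 12.4%. With a single replicate these ranged from 3 of 93 to 4 of 90 (21.3% and 15.3% of all genes), those with the CC threshold met from 74 of 90 to 84 of 93 (58.7% and 57.4%), members called higher from 7 of 72 to 26 of 86 (16.9% and 31.3% of all genes), called lower from 2 of 72 to 6 of 86 (10.7% and 20.3%), and HC/CH above HM/MH from 64 of 72 to 71 of 86 (84.2% and 68.9%). With a single replicate, promoter CC ranged from 92.0% to 95.2%, promoter MM from 2.44% to 3.51%, intron HC/CH from 4.77% to 5.54%, exon HC/CH from 4.29% to 5.74% and intron HM/MH from 2.61% to 3.68%. The 4 members called higher were among the 26 called from replicate 1 and the 7 from replicate 2. This follows from the rule, which requires both replicates, and is no further check. Cox4i1 was not called higher from introns only or from sites in both replicates, where Atp5e was. Leaving out Atp5o-207 and the tissue-restricted isoforms, and using RefSeq starts, were chosen after seeing the data. No paired analysis was possible because there is 1 group. Depth of replicate 2 limits statements on single genes.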
